A study of Caenorhabditis elegans with 6 samples.

Results

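The mutant and the wild type N2 were compared on the 4 flight arrays out of 6 arrays in the series, over 157 worm miRNA probes. The members were chosen by their labels and by probe name, not by any measured value. Each array measured the mature miRNAs of Caenorhabditis elegans, a nematode, from total RNA carrying the Hy3 dye. One strain was N2 and the other carries the label of a ced-1 mutant, with the genotype given as ced-1(n1995) I. Titles and source names call the mutant LS292 and the strain characteristic calls it MT4930; LS292 is commonly the name of a strain carrying a dys-1 (dystrophin) mutation. The product of ced-1 is a receptor with which neighbours engulf dying cells, and the gene has no probe on a miRNA array, so the genotype could not be checked here.

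All groups were whole animals from containers loaded with about 100000 dauer larvae, the arrested and stress-resistant alternative to a larval stage. All flew for 16.5 days at 23 °C, and the worms were collected 7 h after landing, with 1 µg of RNA per sample labelled. One exposure was a static slot (1.92 mGy, gravity peaks up to 0.01 g) and the other a 1 g centrifuge slot (2.27 mGy). Each strain had 1 array per exposure, so 2 mutant arrays stood against 2 N2 arrays. The design text says that only technical repeats were made, so every p-value here measures only the spread between these arrays. The mutant arrays stand in a raw table of their own and the N2 arrays in another, so table and strain cannot be told apart in any value below. Arrays were assigned by the sample names that the sample descriptions give for the raw tables. A value table of the series, not used here, attaches the same normalized values to other samples. Under its labels the array called mutant static here would be N2 static, mutant centrifuge would be mutant static, N2 static would be mutant centrifuge, and N2 centrifuge would be N2 on the ground. Every mutant and N2 value below holds under the names in the raw tables. In whole animals, fewer cells of a type and less of a miRNA per cell cannot be told apart either.

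MicroRNAs are short RNAs that guide Argonaute proteins to messenger RNAs and lower their output, and members of a family share the seed that picks the target. In C. elegans lin-4 and the let-7 family time the larval stages and take part in the passage into and out of dauer. miR-71 and miR-34 are known from survival of starvation, dauer arrest and stress, the miR-35 and miR-51 families from embryonic development, miR-1 from muscle, and lsy-6 from the left-right identity of a pair of taste neurons. Probe names below drop the species prefix, and a single probe stands for miR-44-3p and miR-45-3p.

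The 4 arrays differed in brightness before any miRNA was compared. The brightest worm probe read 3388 and 10498 (foreground minus background intensity, median of 4 spots) on the mutant static and centrifuge arrays, against 505 and 479 on the N2 arrays. A worm probe was called above the limit when it exceeded the 95th percentile of the 476 spike-control spots of its own array. That limit was 97 and 75.2 on the mutant arrays and 14 and 20 on the N2 arrays, so the same intensity means different things on different arrays. Above it lay 53 and 92 of 157 worm probes on the mutant arrays (33.8% and 58.6%) and 27 and 31 on the N2 arrays (17.2% and 19.7%). The median of the spots named Hy3 was 3130 and 2894 on the mutant arrays and 602 and 642 on the N2 arrays.

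Local background was uneven on the N2 arrays. It exceeded 3 times the array's median at 25.1% and 12.6% of N2 spots, static and centrifuge, against 0.734% and 0.218% of mutant spots. At least 2 of 4 spots were affected for 38 and 13 worm probes on the N2 arrays and for 0 on the mutant arrays. As many as 89 and 36 worm probes read 0 or less on the N2 arrays, and none did so on the mutant arrays. The median worm probe read -1.5 and 6.5 on the N2 arrays, below the limits of 14 and 20. Many N2 ranks thus order values within the background. The rank fit and the counts per family were also computed with the spots at high local background left out, a choice made after seeing the data.

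**Figure D1:**
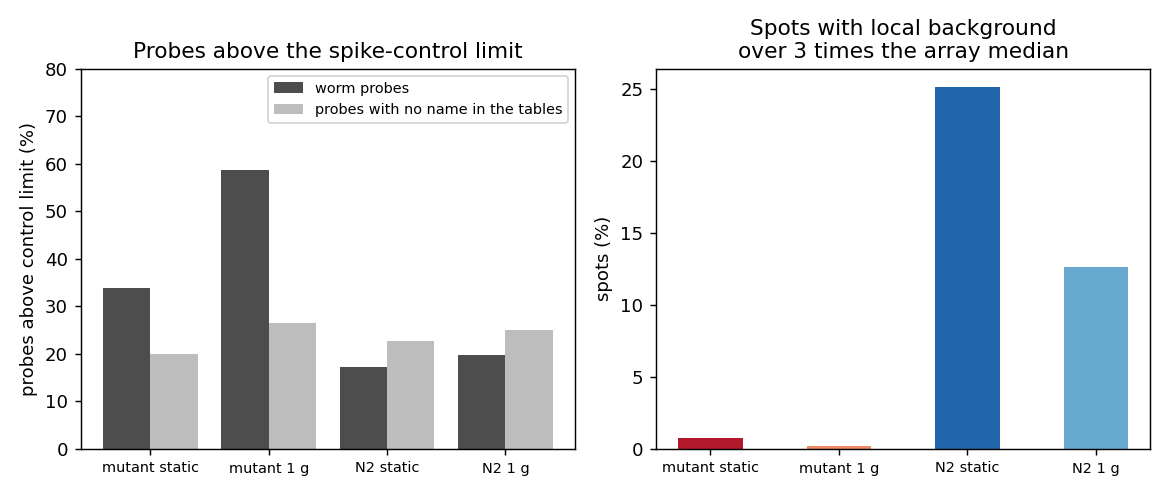
Left, percent of probes above the spike-control limit (y axis) on each of the 4 flight arrays (x axis), for the 157 worm probes and the 2144 probes with no name in the tables. Right, percent of spots whose local background exceeded 3 times the array's median. Worm probes reached 33.8% and 58.6% on the mutant arrays and 17.2% and 19.7% on the N2 arrays, and uneven background was frequent only on the N2 arrays.

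Of the 157 worm probes, 51 were above the limit on both mutant arrays and 23 on both N2 arrays, and 14 were in both sets. These 14 were 27.5% of the mutant set and 60.9% of the N2 set. They comprised let-7-5p and miR-84-5p of the let-7 family, miR-55-3p and miR-56-3p of the miR-51 family, miR-81-3p of the bantam-related miR-58 family and miR-38-3p of the miR-35 family. miR-90-3p, miR-124-3p, miR-230-3p, miR-257, miR-788-5p, miR-799, miR-1822-3p and miR-1824-5p made up the rest. A further 33 probes were above the limit on both mutant arrays and on neither N2 array, and the reverse held for 1 probe, miR-787-3p. Between those extremes, 59 probes were never above the limit.

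Fewer of the top-ranked worm miRNAs were shared between the strains than within a strain. Of the 20 highest-ranked worm probes, 17 were shared by the 2 mutant arrays and 15 by the 2 N2 arrays, against 5 shared between mutant and N2 in static flight and 7 in centrifuge flight. Spearman's correlation over the 157 probes was 0.80 between the mutant arrays and 0.28 between the N2 arrays. Between the strains it was 0.26 in static flight, 0.25 in centrifuge flight, 0.32 for mutant static with N2 centrifuge and 0.20 for mutant centrifuge with N2 static. Over all probes the N2 arrays were thus as far from each other as from the mutant arrays. The value between the N2 arrays was 0.63 over the 106 probes with fewer than 2 affected spots on every array, where the 4 values between the strains ran from 0.23 to 0.38. These coefficients run across probes that share an array and its background, and probes are not replicates.

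The 4 miRNAs in the top 20 of all 4 arrays were let-7-5p, miR-84-5p, miR-55-3p and miR-257. miR-257, listed among early computational predictions, read 1981 and 1994 on the mutant static and centrifuge arrays and 505 and 248.5 on the N2 arrays, ranking 3, 10, 1 and 3. let-7-5p, the miRNA of the late larval transition, read 322 and 1532 in the mutant and 343 and 479 in N2, ranking 17, 13, 2 and 1. Its intensity in static flight was thus close in both strains on arrays of very different overall brightness, and its rank was lower on both mutant arrays.

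Of the 20 highest ranks, 11 miRNAs held one on both mutant arrays and on neither N2 array. These were miR-44-3p/miR-45-3p, miR-48-5p, miR-58-3p, miR-61-3p, miR-65-5p, miR-66-5p, miR-71-5p, miR-80-3p, miR-82-3p, miR-85-3p and miR-90-3p. The opposite pattern was held by 9 miRNAs: miR-52-5p, miR-56-3p, miR-124-3p, miR-237-5p, miR-245-3p, miR-787-3p, miR-799, miR-1823 and miR-1824-5p. On the N2 arrays these 9 read between 39.5 and 180.5.

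**Figure D2:**
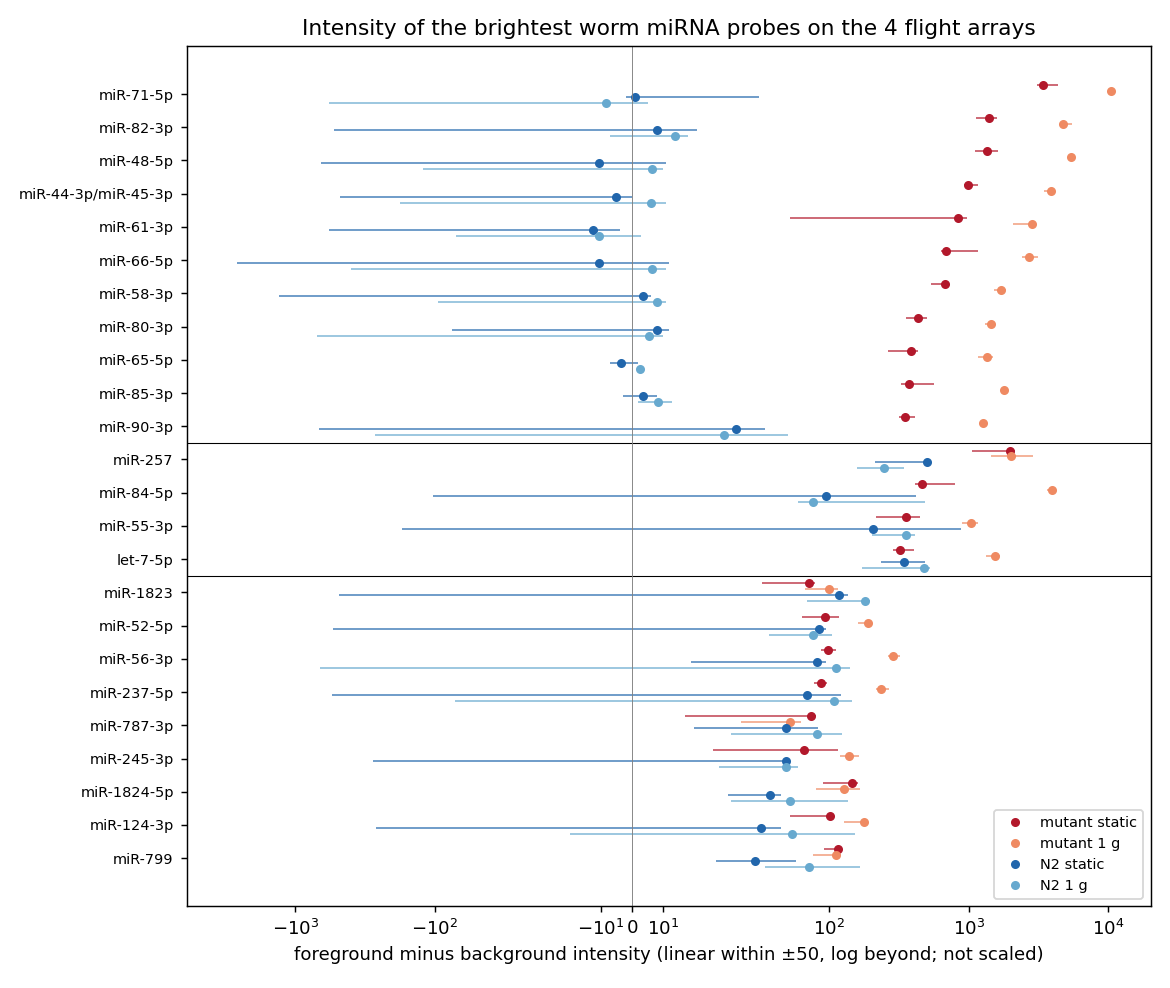
Foreground minus background intensity on the 4 flight arrays (x axis, linear within 50 of 0 and logarithmic beyond, not scaled), with the median of 4 spots as a point and the lowest to highest spot as a line. The upper block holds the 11 miRNAs in the top 20 of both mutant arrays and neither N2 array, the middle block the 4 in the top 20 of all arrays, and the lower block the 9 in the top 20 of both N2 arrays and neither mutant array. In the upper block the mutant points lie at 349 or more and the N2 points between -12.5 and 33.5, with N2 spots spreading far below 0.

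Ranks were then tested as percentile ranks within an array, where 100 is the brightest, as mutant minus N2 in percentile points averaged over the 2 exposures. limma's moderated test with Benjamini-Hochberg adjustment called 0 of 157 probes (0%) at an adjusted p of 0.05, and its lowest adjusted p was 0.0734. At an unadjusted p of 0.05, 43 of 157 (27.4%) passed, 21 ranking higher in the mutant and 22 lower. With 2 arrays against 2, an exact permutation test of a single miRNA cannot go below a two-sided p of 0.333. With the spots at high local background left out, the same fit called 18, of which 12 ranked higher in the mutant and 6 lower, at a lowest adjusted p of 0.0235. The rank result therefore rests on how those N2 spots are treated.

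Without a test, both mutant arrays ranked a probe above both N2 arrays for 36 of 157 probes (22.9%) and below both for 54 (34.4%). With high-background spots left out, 38 of 157 ranked above both and 58 below both. These counts are the background against which the families below are read, each under its own treatment of the spots. The median rank difference over all 157 probes was -7.64 points (-7.48 with high-background spots left out), and single probes ran from -66.9 to 76.3.

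miR-61-3p had the largest rank difference among miRNAs above the limit on both arrays of the strain where they ranked higher. It read 840 and 2821 on the mutant static and centrifuge arrays and -12.5 and -10.5 on the N2 arrays. Both N2 readings were below the limits of their arrays, so the N2 ranks of miR-61-3p order values within the background. miR-61-3p ranked 7 and 8 of 157 in the mutant and 115 and 139 in N2, a difference of 76.3 points (SE 9.49; limma adjusted p = 0.0734). With the high-background spots left out the difference was 86.8 points, and limma's adjusted p was 0.0235. miR-61 is known in the worm as a target of Notch (LIN-12) signalling in vulval precursor cells. Its neighbour within 1 kb in the genome, miR-250-3p, differed by -11.9 points, with overlapping ranks.

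miR-71-5p, needed for long survival in starvation arrest, held the highest rank on both mutant arrays. It read 3388 and 10498 there and 1 and -8.5 on the N2 arrays, ranking 1 and 1 against 62 and 135. Both N2 readings were below the limits of their arrays, so these N2 ranks order values within the background. All 4 spots of each mutant array lay above all spots of the N2 array of the same exposure. That held for 131 of the 157 probes in static flight and 136 in centrifuge flight. The rank difference was 63.2 points (SE 18.1; limma adjusted p = 0.133), and with high-background spots left out 63.7 points (limma adjusted p = 0.0305).

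Of the 10 largest differences in the mutant's favour, the other 8 were miR-64-5p (68.5 points), miR-46-3p (61.1), miR-48-5p (58.9), miR-39-3p (58.4), miR-241-5p (57.2), miR-793 (57.0), miR-51-5p (56.1) and miR-238-3p (55.9). Some of these lay on high local background in N2. miR-241-5p read -231.5 on the N2 static array, at a local background of 374, and miR-39-3p read -219 at 336. On the N2 centrifuge array the same probes read 4 and 3.5. All these N2 readings were below the limits of their arrays, so the N2 ranks of both probes order values within the background. Of these 8, limma called all but miR-241-5p with the high-background spots left out, at adjusted p from 0.0235 to 0.0429, and miR-241-5p had an adjusted p of 0.0513. On foreground intensity without background subtraction, limma called only miR-48-5p of the 8 (adjusted p = 0.0464). There the 8 differences ran from 10.8 points (miR-241-5p) to 55.7 points (miR-48-5p), with miR-238-3p at 29.3. With the mean of the 4 spots in place of the median, the 10 differences ran from 21.97 points (miR-51-5p) to 67.4 points (miR-48-5p), and miR-64-5p stood at 40.3.

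The 10 largest differences in the favour of N2 ran from -24.8 to -55.7 points. miR-787-3p read 49.5 and 81.5 on the N2 arrays, both above their limits, and 74.5 and 52 on the mutant arrays, both below theirs. It ranked 12 and 10 in N2 against 82 and 115 in the mutant, -55.7 points (SE 10.9; limma adjusted p = 0.0821). Before any scaling its 4 spots overlapped between the strains in both exposures. After the scaling described below, its level was at least 2-fold lower in the mutant in centrifuge flight but not in static flight.

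miR-1823 was the only one of the 10 whose N2 intensity was the higher in both exposures. It read 118 and 180.5 on the N2 arrays and 71.5 and 99.5 on the mutant arrays, ranking 5 and 5 against 85 and 75. The rank difference was -47.8 points (SE 7.98; limma adjusted p = 0.0776) and -48.1 with high-background spots left out (limma adjusted p = 0.0328). Its 4 spots overlapped between the strains in both exposures all the same. The other 8 were miR-1832, miR-245-3p, miR-796, miR-786-3p, miR-240-3p, miR-237-5p, miR-52-5p and miR-799, of which limma called miR-1832 alone with high-background spots left out (-39.6 points, adjusted p = 0.0429).

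These 10 differences depended on how the 4 spots were summarised. With their mean, miR-787-3p stood at -62.7 points, miR-796 at -41.1, miR-1823 at -35.5, miR-799 at -31.5 and miR-245-3p at -24.0. The other 5 came closer to 0: miR-240-3p at -8.76, miR-52-5p at -8.28, miR-237-5p at -6.69, miR-1832 at -3.18 and miR-786-3p at 0. Ranked among all probes of the array, named and unnamed, the 10 ran from -31.1 points (miR-787-3p) to -5.09 (miR-799).

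**Figure D3:**
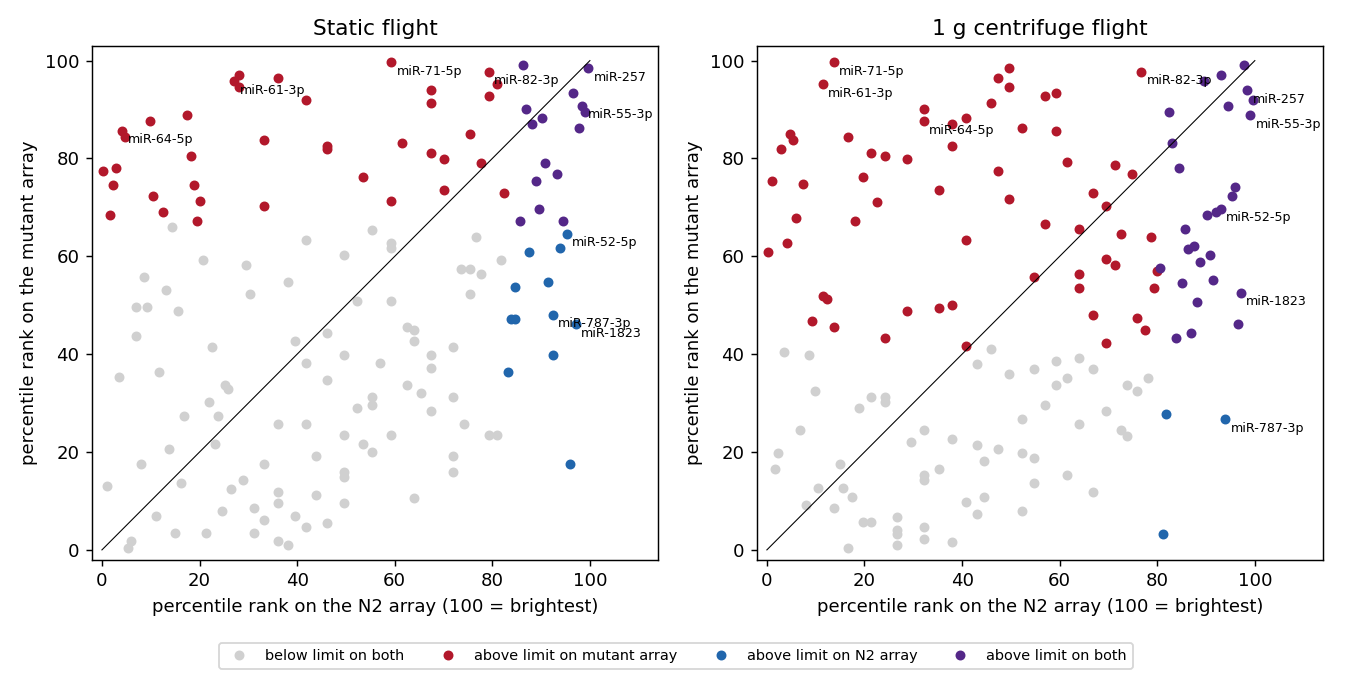
Percentile rank of the 157 worm probes on the mutant array (y axis) against the N2 array of the same exposure (x axis), with 100 the brightest and the line marking equal rank. Colours show on which array a probe was above its spike-control limit. miR-71-5p and miR-61-3p lie high on the mutant arrays and low or midway on the N2 arrays, while miR-257 and miR-55-3p lie near the top of both.

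Levels were compared after scaling each array by its median over the 9 worm probes at 50 or more on all 4 arrays, with scaled values under 50 set to 50. Of 157 probes, 109 reached 50 on at least 2 arrays before scaling, and 88 of those were under 50 on both N2 arrays, so they passed only through the mutant and could hardly be other than higher there. limma called 20 of 109 (18.3%) higher in the mutant and 1 (0.917%) lower at an adjusted p of 0.05. Of these 21, 18 were at the floor on both N2 arrays, as were 79 of all 109 tested. The count is a description of which miRNAs read bright on the mutant arrays, and without any scaling limma called 0 of 109, with 50 at an unadjusted p of 0.05. Scaling to the 75th percentile of the worm probes gave 9 higher and 6 lower, and quantile normalization 17 and 14.

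For miRNAs at the floor in N2 the fold is a lower bound, the mutant's geometric mean over the floor. It was at least 58.7-fold for miR-71-5p, at least 26.5-fold for miR-48-5p, at least 25.3-fold for miR-82-3p, at least 19.2-fold for miR-44-3p/miR-45-3p and at least 15.1-fold for miR-61-3p. Lower bounds of at least 13.5-fold, 10.6-fold, 8.02-fold, 7.78-fold and 7.05-fold held for miR-66-5p, miR-58-3p, miR-85-3p, miR-80-3p and miR-65-5p. The remaining 8 of the 18 were miR-39-3p, miR-57-5p, miR-63-3p, miR-64-5p, miR-72-5p, miR-74-3p, miR-793 and lin-4-5p, each at least 2.42-fold to at least 4.14-fold. No p-value is given for these 18, since the filter fixed their direction. Scaling to the 75th percentile of the worm probes lowered the log2 differences, from 5.87 to 4.70 for miR-71-5p, from 4.73 to 3.55 for miR-48-5p, from 4.66 to 3.43 for miR-82-3p, from 4.26 to 3.08 for miR-44-3p/miR-45-3p and from 3.92 to 2.74 for miR-61-3p. miR-65-5p and miR-85-3p were no longer called under it, but for these 18 a call kept or lost says nothing about direction.

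The 3 calls with a measured N2 level were miR-84-5p, miR-90-3p and miR-1823. miR-90-3p read 349 and 1269 in the mutant and 33.5 and 29.5 in N2, a difference of 2.36 on the log2 scale (SE 0.26), but it too passed the filter through the mutant alone. Scaling to the 75th percentile of the worm probes brought it to 0.0039. miR-1823 was 2.26 lower in the mutant on the log2 scale (difference -2.26, SE 0.39; limma adjusted p = 0.0248). Its call was lost when the mean of the spots was used (-0.96, limma adjusted p = 0.537).

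Within each exposure 1 array stood against 1, and no test was possible. In static flight 47 of 134 probes with a side at the floor or above were at least 2-fold higher in the mutant (35.1%) and 2 were lower (1.49%), miR-1823 and miR-795-5p. In centrifuge flight 27 of 62 were higher (43.5%) and 16 lower (25.8%). Those 16 came with the scaling factor of 0.226 that the bright mutant centrifuge array received, against 1.07, 1.98 and 2.09 for mutant static, N2 static and N2 centrifuge. Before scaling, all 4 mutant spots lay above all 4 N2 spots for 136 probes in that exposure and below for 1, miR-258. The matching counts in static flight were 131 and 0.

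The split between higher and lower depended on the scaling. With the 75th percentile of the worm probes it was 12 higher and 25 lower in static flight and 16 and 21 in centrifuge flight. With quantile normalization it was 27 and 30, and 32 and 33. Without scaling it was 46 and 0, and 72 and 1, and with the authors' normalized intensity 51 and 2, and 40 and 3. The median difference over the compared probes was 0.75 and 0.71 (log2, static and centrifuge) with the probes common to all arrays, -0.28 and 0.02 with the 75th percentile, and -0.05 and -0.16 with quantile normalization.

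The let-7 family, whose members time larval transitions by repressing genes such as lin-41 and hbl-1, was mixed. Of its 7 probes, 3 ranked higher on both mutant arrays, 2 ranked lower on both and 2 overlapped, with a median rank difference of 0.48 points against -7.64 for all probes. With high-background spots left out, 1 ranked lower and the median was 4.78. miR-48-5p read 1354 and 5361 in the mutant and -10.5 and 6.5 in N2. miR-84-5p read 460 and 3967 in the mutant and 94.5 and 76.5 in N2, ranking 11 and 5 against 6 and 11. Its level was 1.94 higher in the mutant on the log2 scale (SE 0.38; limma adjusted p = 0.0366), while its rank differed by 0.48 points. With quantile-normalized intensity (floor 1) its log2 difference was 0.083 (limma adjusted p = 0.971). let-7-5p, by contrast, differed by -1.25 on the log2 scale (SE 0.30; limma adjusted p = 0.0565), and its rank difference was -8.60 points. With quantile-normalized intensity its log2 difference was -2.87 (limma adjusted p = 0.0839). Before scaling, let-7-5p read higher in the mutant in centrifuge flight and close to N2 in static flight. Both level differences thus rest on the scaling. Within the family the order of ranks turned: miR-48-5p ranked above let-7-5p on both mutant arrays and below it on both N2 arrays.

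miR-793 read 161.5 and 620 in the mutant and -2 and -20.5 in N2 (at least 3.11-fold). miR-795-5p, also of the family, read 48.5 and 243 in the mutant and 85.5 and 10 in N2, so its rank difference was -78.3 points in static flight and 6.05 in centrifuge flight. lin-4-5p, the founding heterochronic miRNA, read 175.5 and 650.5 in the mutant and 1.5 and 7 in N2 (at least 3.32-fold). Its relative miR-237-5p read 88 and 233.5 in the mutant and 69 and 109 in N2 and ranked lower in the mutant by 27.5 points (difference -27.5, SE 8.54; limma adjusted p = 0.137), but by -6.69 with the mean of the spots. The lin-4 pair thus held opposite rank directions, with lin-4-5p at 27.9 points.

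The miR-58 family, related to fly bantam and among the most abundant miRNAs of the worm, ranked higher on both mutant arrays for 4 of 4 probes, with a median of 24.6 points. The count was the same with high-background spots left out. miR-81-3p read 2568 and 9107 in the mutant and 28.5 and 185 in N2, ranking 2 and 2 against 22 and 4, so in centrifuge flight it stood near the top of both strains. miR-82-3p read 1402 and 4718 in the mutant and 8 and 14 in N2, ranking 4 and 4 against 32 and 37. miR-58-3p and miR-80-3p read 679 and 434.5 on the mutant static array and 3.5 and 8 on the N2 static array. Only miR-81-3p was above the limit on all 4 arrays, and the other 3 were above it on the mutant arrays alone.

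The miR-64, miR-65, miR-66 and miR-229 genes lie next to each other within 1 kb steps. miR-64-5p, miR-65-5p and miR-66-5p ranked higher on both mutant arrays by 54.1 to 68.5 points, and miR-229-5p overlapped at 23.1 points. miR-66-5p read 690.5 and 2718 in the mutant and -10.5 and 6.5 in N2. miR-65-5p read 382.5 and 1341 in the mutant and -3.5 and 2.5 in N2. With the mean of the spots miR-65-5p stood at 26.8 points. With miR-63-3p, 4 of 5 probes of the group ranked higher on both mutant arrays and none ranked lower.

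Some neighbouring genes ranked lower. miR-54-3p, miR-55-3p and miR-56-3p all ranked lower on both mutant arrays, by -8.92 to -24.5 points, while miR-56-5p of the same cluster overlapped at 7.48 points. With the mean of the spots miR-56-3p turned to 15.4 points, and with high-background spots left out miR-54-3p overlapped. miR-240-3p and miR-786-3p, adjacent genes of which miR-786 is known from the rhythm of defecation, both ranked lower on both mutant arrays, at -28.7 and -30.7 points, but at -8.76 and 0 with the mean of the spots. In the miR-51 family, 4 of 6 probes ranked lower on both mutant arrays and miR-51-5p ranked higher, with a median of -15.4 points. With high-background spots left out 3 ranked lower and the median was -9.79. miR-55-3p itself read 354.5 and 1033 in the mutant and 205 and 355.5 in N2, ranking 15, 18, 3 and 2.

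Of the 8 probes of the miR-35 family, needed for embryonic development, 2 were above the limit on the mutant static array, 6 on the mutant centrifuge array and 1, miR-38-3p, on each N2 array. miR-38-3p read 237 and 595 in the mutant and 38.5 and 30 in N2, with nearly equal ranks of 21 and 27 against 19 and 27. With the mean of the spots its rank difference was 64.3 points in place of -0.64. miR-39-3p read 115.5 and 523 in the mutant and -219 and 3.5 in N2 (at least 2.42-fold). Of the 8 probes, 2 ranked higher on both mutant arrays (3 with high-background spots left out), 1 lower, and 5 overlapped. The miR-72 family (relatives of miR-31) ranked higher on both mutant arrays for 2 of 3 probes, and miR-73-3p overlapped because it ranked 17 on the N2 centrifuge array.

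Body-muscle miR-1-3p read 187 and 474 in the mutant and 6 and -49 in N2, and the rank difference was 9.55 points in static flight and 79.0 in centrifuge flight. On the N2 centrifuge array its local background was 140 against a median of 51. Its mean rank difference was 44.3 points, and 10.8 points with high-background spots left out. Among the 4 neuronal probes, miR-124-3p of sensory neurons read 101 and 177 in the mutant and 41.5 and 54.5 in N2, ranking 48 and 50 against 17 and 16. lsy-6 read 109.5 and 127.5 in the mutant and 11.5 and 11.5 in N2. Averaged over the exposures, all 4 neuronal probes had rank differences below 0, from -6.21 to -20.7 points, 1 of them without overlap. With high-background spots left out, 4 ranked lower without overlap, as did 58 of all 157 probes. The median of the 4 was -25 points in static flight and 2.23 in centrifuge flight. Above the limit were 2 of the 4 on each mutant array and 1 on each N2 array, so the ranks of the others order values within the background.

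Of 6 miRNAs known from ageing and stress, 3 ranked higher on both mutant arrays (miR-34-5p, miR-71-5p, miR-238-3p), 2 lower (miR-239a-5p, miR-239b-5p) and 1 overlapped (miR-246-3p). With high-background spots left out 1 ranked lower. miR-34-5p read 170.5 and 369 in the mutant and -2 and 6 in N2, ranking 28 and 36 against 83 and 82. miR-239a-5p and miR-239b-5p were above the limit on no array, so their ranks order values within the background.

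Among 15 early computational predictions, 1 ranked higher on both mutant arrays and 2 lower (3 with high-background spots left out), with a median of -3.98 points. Besides miR-257, miR-260 and miR-269 were in the top 20 of the mutant static array. miR-260 read 713.5 in the mutant in static flight and 84.5 in centrifuge flight, and 8.5 and -14 in N2, so its level rested on 1 mutant array. Of the 40 probes numbered miR-784 and up, a grouping made after seeing the data, 22 ranked lower on both mutant arrays and 1 higher, with a median of -18.3 points. Over all probes 54 of 157 (34.4%) ranked lower. With high-background spots left out, 20 of the 40 ranked lower. Only 7 and 17 of the 40 were above the limit on the mutant static and centrifuge arrays, and 10 and 11 on the N2 arrays. Many of these ranks thus order values within the background.

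**Figure D4:**
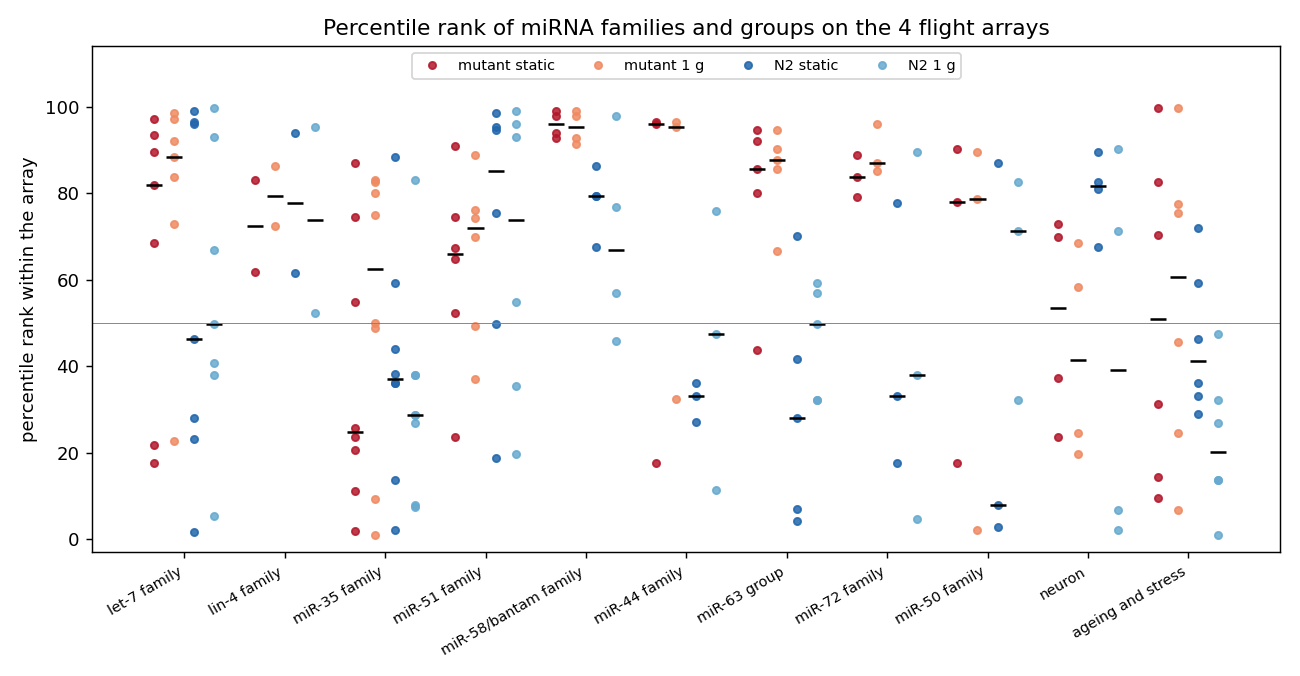
Percentile rank within the array (y axis, 100 = brightest) of the probes of 11 families and groups (x axis) on the 4 flight arrays. Each point is 1 probe and each black bar the median. The miR-58 family probes lie above 90 on the mutant arrays and spread from 45.9 to 97.8 on the N2 arrays.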

How the data were processed

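Foreground and foreground-minus-background intensity of each spot was deposited by the authors in 2 raw tables, per the file headers; scanner, spot-finding software and array lot handling are not given in the sources used here. Each array held 10080 spots for 2314 probes, with 4 spots per worm probe. The median of those spots of foreground minus background intensity was used. Up to a factor per array, it matched the authors' deposited normalized intensity for 157 of 157 worm probes. Where the authors gave no value, the probe was counted as matching. The number of arrays limits the precision of every value. Tables were joined on probe and spot position, and probes named as worm miRNAs in either table were kept (154 in the newer, 156 in the older). Gene names matched the WBcel235 RefSeq table for 146 of 157 probes; it was used for names and neighbours (within 1 kb) only. The authors' deposited normalized intensity served as an alternative, and 24 other value columns were not used.

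Percentile ranks within each array were fitted with limma 3.58.1 in R 4.3.3 over all 157 worm probes (strain term, 2 residual degrees of freedom, Benjamini-Hochberg adjustment at 0.05). Levels were log2 of the median foreground minus background intensity of the 4 spots. They were scaled by the 9 probes at 50 or more on all 4 arrays, with a floor of 50. The same fit was run on them for the 109 probes at 50 or more on at least 2 arrays. The fitting code was run on simulated normal values with known differences. Those values had no ranks, floor, filter or gap in brightness, so the run does not test the fits under the conditions of these arrays. Within an exposure probes at least 2-fold apart were counted without a test.

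The miRNAs named are any called in the rank fit, the 10 largest rank rises and 10 largest falls that moved the same way in both exposures and were above the control limit on both arrays of the higher strain, and the 10 brightest of each array. Those above the limit on all 4 arrays, up to 10 per direction in the level fit and members of the lists were named too. miR-787-3p, miR-258, miR-1823 and other small sets were also singled out by count. Members and lists were chosen with earlier results of these data known. Alternatives were other scalings, floors, filters, spot summaries, background treatments, a replicate block and leaving out each array.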

Additional observations from a re-analysis of the deposited data

Results flagged for a closer look

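The rank difference had the same sign in both exposures for 106 of 157 probes. From the rest, 3 miRNAs with opposite signs are given here, and the difference between exposures was not tested. miR-258 differed by 8.60 points in static flight and -50.3 in centrifuge flight; with high-background spots left out, limma called it lower in the mutant over both (-56.1 points, adjusted p = 0.0328). miR-84-5p differed by -3.18 and 4.14 points, and miR-795-5p by -78.3 and 6.05. miR-258 read 60.5 and 83 in the mutant and -15.5 and 171.5 in N2, so N2 static and N2 centrifuge stood far apart.

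Probes with no name in the tables, 2144 on each array, were not used in any comparison. They exceeded the spike-control limit at 19.9% and 26.4% on the mutant static and centrifuge arrays and at 22.8% and 24.9% on the N2 arrays. On the N2 arrays these shares were higher than those of the worm probes, and on the mutant arrays lower. The brightest unnamed probe read 15062 and 43074 in the mutant and 8807 and 6186 in N2.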

How the results depend on the processing

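In the rank fit, limma called 0 probes under the mean of the spots, normal scores, ranks among all probes, quantile-normalized values, the authors' normalized values, the exposure as replicate block and each array left out (0 to 0). It called 6 on foreground alone and 18 (12 higher, 6 lower) without high-background spots. With the filter above the limit on at least 2 arrays it called 26 of 65. That filter keeps probes by level, and 33 of the 65 passed it through the mutant arrays alone. The 10 probes called in both of the last settings are therefore a description and not a second test. The level fit called 21 in the main setting and with all 6 arrays, where it is identical because each ground group has 1 array, and 25 with the exposure as replicate block; the exposures pair the arrays by label only, as each array has replicate number 1. It called 0 without scaling, 1 with normexp, 2 of 9 at 50 or more on all 4 arrays, 11 at a floor of 100 and 34 with the authors' normalized values. Leaving out 1 array gave 13 to 83 calls: 83 without mutant static, 80 without mutant centrifuge, 14 without N2 static and 13 without N2 centrifuge, where the lone array is assumed to vary like the others and probes at the floor on both N2 arrays have no spread. At least 2-fold apart were 22 probes in static flight at a floor of 100 (49 in the main setting), and in centrifuge flight 73 without scaling, 65 with quantile normalization and 20 at a floor of 100 (43 in the main setting). Rank differences that changed sign were those of miR-260 (-9.87 without N2 centrifuge, 61.8 without N2 static), miR-258 (2.91 among all probes, 14.8 without N2 centrifuge, -56.5 without N2 static), miR-84-5p (-2.23 with mean spots, -1.43 without mutant centrifuge, -1.27 without N2 centrifuge, 2.39 without mutant static), miR-38-3p (64.3 with mean spots, 9.06 among all probes, 1.27 without mutant centrifuge, 1.91 without N2 static, -3.18 without N2 centrifuge), miR-56-3p (15.4) and miR-795-5p (10.2) with mean spots, and miR-788-5p (1.71), miR-257 (1.08) and miR-230-3p (0.27) among all probes; the cause was not tested. Of 11 level differences recomputed singly, none changed sign. Most of the 11 probes passed the filter through the mutant alone, which fixed their direction, so their sign could hardly change. The level differences of miR-84-5p and let-7-5p were not among the 11. Low N2 signal limits every fold against N2 to a lower bound for most probes.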
